A study of Mus musculus with 8 samples.

Results

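The basal and apical segments of the organ of Corti were compared in control mice at postnatal day 16, in 4 of the 8 arrays of the study, by taking the sample titles at their word: control base (2 samples) against control apex (2 samples). The apical and basal sample of the same number were treated as the segments of 1 mouse, since the submitters state that a replicate joins the segments of both cochleae of a single animal. Control mice carried the transgene Tg(Atoh1-cre)1Bfri, which expresses Cre in hair cells and some other cells under Atoh1 regulatory sequence, and 1 floxed (Dicer1tm1Bdh) and 1 wild-type allele of Dicer1. They are littermates that share Cre with the knockouts and are expected to lack 1 Dicer1 allele in recombined cells, not untouched wild-type mice. The other 4 arrays come from mice of the same age with Atoh1-Cre and 2 floxed Dicer1 alleles (Dicer1(flox/flox), conditional knockout or cKO), 2 apical and 2 basal segments, and none of them is shared with the control comparison. Each segment holds whatever was dissected with the sensory strip, so that in these bulk samples fewer cells of a type and less RNA per cell cannot be told apart.

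The cochlea sorts sound by frequency along its length. Hair cells near the base answer high tones and those near the apex low tones, and the basilar membrane below them and the tectorial membrane above them change in width, thickness and stiffness along the way. Tectorins and otogelin build the non-collagenous matrix of the tectorial membrane, fibrillar collagens its fibres, and outer hair cells receive cholinergic input through receptors that contain Chrna9.

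Values are log2 of the deposited MAS5 signal, and differences are base minus apex, so that a positive value is higher in the base. Pairs of values are given for mouse 1 and then mouse 2. Standard errors (SE) and p-values come from limma fitted to all 8 arrays with each mouse as a block, so that the spread of a pair difference is estimated from 2 control and 2 cKO mice. All 4 control arrays had a trimmed mean of 500, with medians of 100 and 72.6 in the apex and 76.4 and 67.3 in the base. Their replicates correlated across genes at r = 0.961 in the apex and 0.928 in the base, against 0.968 and 0.951 between the segments of mouse 1 and mouse 2. Mouse 1 was female by Xist (12.54 in the apex and 12.39 in the base) and mouse 2 male (6.53 and 6.93). The basal segment of mouse 1 and the apical segment of mouse 2 were low in pigment cell transcripts of the stria vascularis. That tissue is the vascular epithelium on the lateral wall. The median log2 signal of the pigment cell genes was 7.31 and 7.68 in these segments. It was 8.65 in the apex of mouse 1 and 10.51 in the base of mouse 2. Dct, which makes melanin, was at 5.96 in the basal segment of mouse 1 and at 13.88 in that of mouse 2. The basal segment of mouse 2 was in turn low in transcripts of neurons, with a median log2 signal of 8.91 over the neuronal genes against 10.36 to 10.61 in the other 3 control segments. Results that rest on any of these segments are therefore given for each mouse. The apical array of mouse 1 had 67.4% of its probe sets at or above the filter's signal, against 58.8% to 63.6% on the other 7, which touches genes of low signal in that pair. The hair cell markers Gfi1, Otof and Myo7a lay above the filter in all 4 control segments, while the skeletal muscle gene Myh4 lay under it in all 4. Ckm, another muscle gene, was just above it in both apical segments (5.54 ± 0.085, SD, n = 2) and just under it in both basal ones (5.13 ± 0.16). Acta1, a muscle actin, passed the filter and was tested, with differences of -0.23 and 0.06. Of 13 skeletal muscle genes listed, 4 were tested, and their median signal lay above the filter in each control segment. Muscle is therefore not shown to be absent.

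The gene of smallest p was Tectb, which encodes beta-tectorin, a glycoprotein of the tectorial membrane. Its log2 signal was 12.52 and 13.44 in the apical segments and 5.71 and 7.93 in the basal segments, so the groups were far apart in both mice. The base was 71.4-fold lower (-6.16 ± 0.53 on the log2 scale, SE, n = 2 pairs; adjusted p = 0.195, limma). Calb1, the calcium buffer calbindin, stood second in size among the genes of smallest p. It was at 7.97 and 9.97 in the apex and at 5.81 and 6.01 in the base, an 8.35-fold lower basal level (-3.06 ± 0.43) that was larger in mouse 2 (-3.96) than in mouse 1 (-2.16).

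No gene passed the adjusted threshold of 0.05 in limma (0 of 13221, 0%), and the smallest adjusted p, 0.195, was shared by 37 genes. At an unadjusted p under 0.05 there were 1448 genes, 729 higher in the base (5.51%) and 719 lower (5.44%), where 661 are expected by chance. The count after adjustment rested on single mice: it was 353 (142 higher and 211 lower) without control mouse 1 and 8 (1 higher and 7 lower) without control mouse 2, fits in which the lone control pair is assumed to vary like the cKO pairs. With no replicate block it was 0, with 994 genes at an unadjusted p under 0.05, and it was 551 (187 higher and 364 lower) without the block and without the basal segment of mouse 1. The unadjusted count moved to 2790 in that last fit and to 623 without the block and without the apical segment of mouse 1. With 2 pairs an exact permutation test of a single gene cannot go below p = 0.5, so no such test is given. Higher and lower below describe the values, and none of the differences named passed the adjusted threshold.

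The values of the control groups did not overlap for 2241 genes higher in the base (17.0%) and 2240 lower (16.9%). Both mice had the base higher for 28.8% of genes and lower for 29.4%. Across genes, which are not independent replicates, the differences of the 2 mice correlated weakly (r = 0.0801, Spearman's rho = 0.190). Mouse 1 had 709 genes over 2-fold apart between its segments and mouse 2 had 1361. Of the genes over 2-fold apart in both mice, 156 went the same way, 58 higher in the base (0.439%) and 98 lower (0.741%), and 72 went opposite ways. The nearest genes inside that limit were Lbp (1.0032 in the smaller pair, log2) and Lmod3 (1.00028 in size), and the nearest outside were Scarf2 (0.999) and Kcna5 (0.997 in size).

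**Figure D1:**
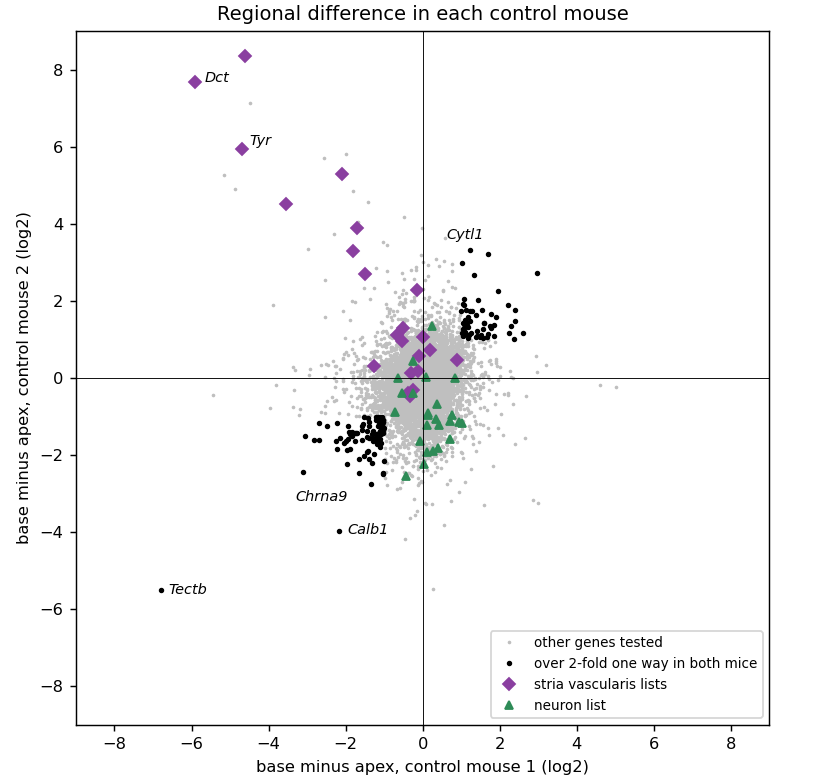
Base minus apex (log2) of each of 13221 genes in control mouse 1 (horizontal) and control mouse 2 (vertical), with the 156 genes over 2-fold one way in both mice in black, stria vascularis genes as diamonds and neuronal genes as triangles. Tectb and Calb1 lie at the lower left, and the strial genes Dct and Tyr lie at the upper left, apical in mouse 1 and basal in mouse 2.

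Beside Tectb and Calb1, the 15 genes of smallest p that were lower in the base had smaller differences. Fibronectin (Fn1) was at 11.25 and 12.50 in the apex and at 9.93 and 11.05 in the base (-1.39 ± 0.14, and -2.30 as the mean of its probe sets), lower in each segment of mouse 1 than in the same segment of mouse 2. Strip2, a scaffold of phosphatase complexes, was at 8.98 and 9.10 against 7.34 and 6.99 (-1.88 ± 0.23). Kcnip4, a subunit that tunes A-type potassium channels, was at 9.09 and 8.25 against 7.13 and 6.03 (-2.09 ± 0.28). Slitrk6, a membrane protein needed for innervation of the inner ear, was at 9.39 and 9.49 against 7.55 and 7.99 (-1.67 ± 0.25). The teneurin Tenm4 (-1.25 ± 0.17), the heparan sulphate sulphotransferase Hs6st2 (-1.95 ± 0.28), the corticotropin-releasing hormone receptor Crhr1 (-1.46 ± 0.21), the tubulin Tubb2b (-1.43 ± 0.21), the pantetheinase Vnn1 (-1.87 ± 0.24), Rassf6, of the Ras association family (-1.81 ± 0.19), and the protease cathepsin E (Ctse, -1.32 ± 0.20, and -0.73 as the mean of its probe sets) belonged to the same 15, with Gfi1 and Acbd7, described with the hair cell genes. Their adjusted p ran from 0.195 to 0.208.

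Ptgis, prostacyclin synthase, headed the 15 genes of smallest p that were higher in the base. It was at 10.06 and 10.26 in the apex and at 11.95 and 11.84 in the base (3.34-fold; 1.74 ± 0.16). Nkx6-1, a homeodomain transcription factor, was at 6.04 and 6.54 against 7.99 and 8.80 (4.31-fold; 2.11 ± 0.23). Smpd3, a neutral sphingomyelinase needed for bone and cartilage mineralisation, was at 8.91 and 9.30 against 10.69 and 10.95 (1.71 ± 0.19). Groups that do not overlap were a condition of the choice for all 30 genes and are no finding about them. The matrix proteins and processing enzymes among the 15 were chondroadherin (Chad, 1.24 ± 0.15), biglycan (Bgn, 1.14 ± 0.14), osteomodulin (Omd, 1.42 ± 0.19), Col11a2 (1.12 ± 0.15), Col4a3 (1.17 ± 0.16), Pcolce2, an enhancer of procollagen cleavage (1.28 ± 0.17), and Cpxm1, of the carboxypeptidase family (1.24 ± 0.16). Dio2, the deiodinase that makes active thyroid hormone, was at 11.46 and 11.85 against 12.58 and 12.68 (0.98 ± 0.13). The serpin Serpina3n (1.51 ± 0.19), the sulphotransferase Sult5a1 (1.61 ± 0.19), the cholesterol acyltransferase Lcat (1.24 ± 0.17) and the glycolytic enzyme Pfkl (1.01 ± 0.14, and 0.60 as the mean of its probe sets) completed the group. Adjusted p was 0.195 for all 15. Other probe sets of the named genes, where the array had them, gave the same sign in 8 of 9 cases for the basal genes and in 6 of 6 for the apical ones.

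**Figure D2:**
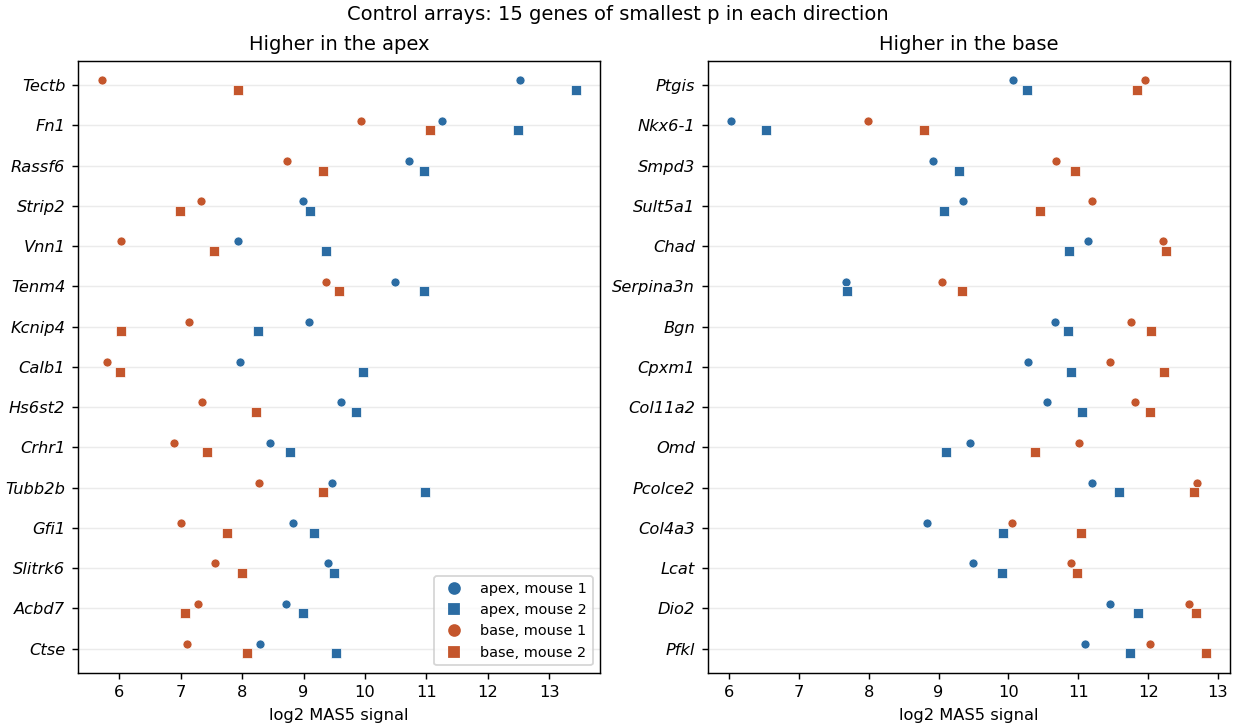
Log2 MAS5 signal (horizontal) on each of the 4 control arrays for the 15 genes of smallest p in each direction, with apical segments in blue, basal segments in orange, circles for mouse 1 and squares for mouse 2. Tectb has the widest gap, from 12.52 and 13.44 in the apex to 5.71 and 7.93 in the base.

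Nearly all hair cell genes measured were lower in the base. In the list of hair cell transcription factors and soma proteins, 15 of 16 tested genes were lower, 13 of them in both mice, and the median difference was -0.66 (-0.59 in mouse 1 and -0.80 in mouse 2), beside -0.02 over all genes tested. At an unadjusted p under 0.05, 8 of the 16 were lower (50%, against 5.44% of all genes tested) and 0 higher. With no replicate block 7 were lower at that level. Over all genes tested, 29.4% were lower and 28.8% higher in both mice. Gfi1, a transcription factor that hair cells need to survive, was at 8.83 and 9.17 in the apex and 7.01 and 7.76 in the base (3.08-fold; -1.62 ± 0.24, adjusted p = 0.195). Acbd7, which binds acyl-CoA, was at 8.72 and 8.99 against 7.28 and 7.07 (-1.68 ± 0.25, adjusted p = 0.195). The RNA-binding protein Rbm24 was at 9.01 and 8.93 against 7.96 and 7.65 (-1.17 ± 0.22, adjusted p = 0.247), but gave only -0.30 as the mean of its probe sets. Of the general hair cell markers, Myo7a, a stereocilia myosin, was at 8.96 and 8.70 against 8.49 and 7.99 (-0.59 ± 0.30), and Otof, which couples calcium to vesicle release, at 9.26 and 8.95 against 8.94 and 8.18 (-0.54 ± 0.28). Both basal values lay below both apical ones in each gene, in Otof by the difference between 8.94 and 8.95. Bone and cartilage genes were higher in the same basal segments (medians of 0.72 and 0.73), and their part in the hair cell values was not tested.

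Chrna9, the subunit through which efferent nerves reach outer hair cells, was at 7.26 and 7.92 in the apex and at 4.16 and 5.47 in the base. With basal signals under the filter raised to it, the base was at least 4.65-fold lower (adjusted p = 0.247). It also heads the outer hair cell list with Strip2, Aqp11 and Lmod3. Aqp11, an aquaporin of intracellular membranes, was at 9.22 and 9.95 against 8.30 and 9.26 (-0.80 ± 0.18), a difference of -0.50 as the mean of its probe sets and of -1.28 to -0.32 with 1 control array left out and no block. Lmod3, of the leiomodin actin nucleators, was at 7.51 and 8.53 against 5.98 and 7.53 (-1.26 ± 0.28). The list had 9 of 10 genes lower, 7 in both mice, with a median of -0.61 (-0.63 and -0.70). At an unadjusted p under 0.05, 5 were lower (50%, against 5.44% of all genes tested). Prestin (Slc26a5), which drives outer hair cell motility, had too low a signal to be tested, at 5.04 and 5.31 in the apex and 4.24 and 2.06 in the base.

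The hair bundle, the sensory organelle, had 16 of 19 genes lower in the base and a median of -0.50 (-0.41 and -0.43). Stereocilin (Strc), which links the tips of outer hair cell stereocilia, was at 8.53 and 8.77 in the apex and 6.39 and 7.21 in the base (-1.85 ± 0.50). The actin bundler Espn was at least 1.85-fold lower in the base, with low values raised to the filter (5.81 and 6.92 against 4.22 and 5.67). The bundler Pls1 (-0.75 ± 0.21) and Lhfpl5, a part of the transduction complex (-0.49 ± 0.19), made up the 4 genes lower at an unadjusted p under 0.05, and no gene was higher at that level. Those 4 were 21.1% of the list, against 5.44% of all genes tested. Genes of the inner hair cell and its ribbon synapse were closer: 10 of 12 were lower with a median of -0.31, which was -0.06 in mouse 1 and -0.53 in mouse 2, and none had an unadjusted p under 0.05. Cacna1d, the calcium channel of the synapse, was at 8.32 and 8.38 against 7.97 and 7.89 (-0.42 ± 0.20). In that list Dnajc5b, a cochaperone, gave -0.55 ± 0.28 and the calcium sensor Cabp1 -0.83 ± 0.54, the latter 0.13 in mouse 1 and -1.78 in mouse 2.

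**Figure D3:**
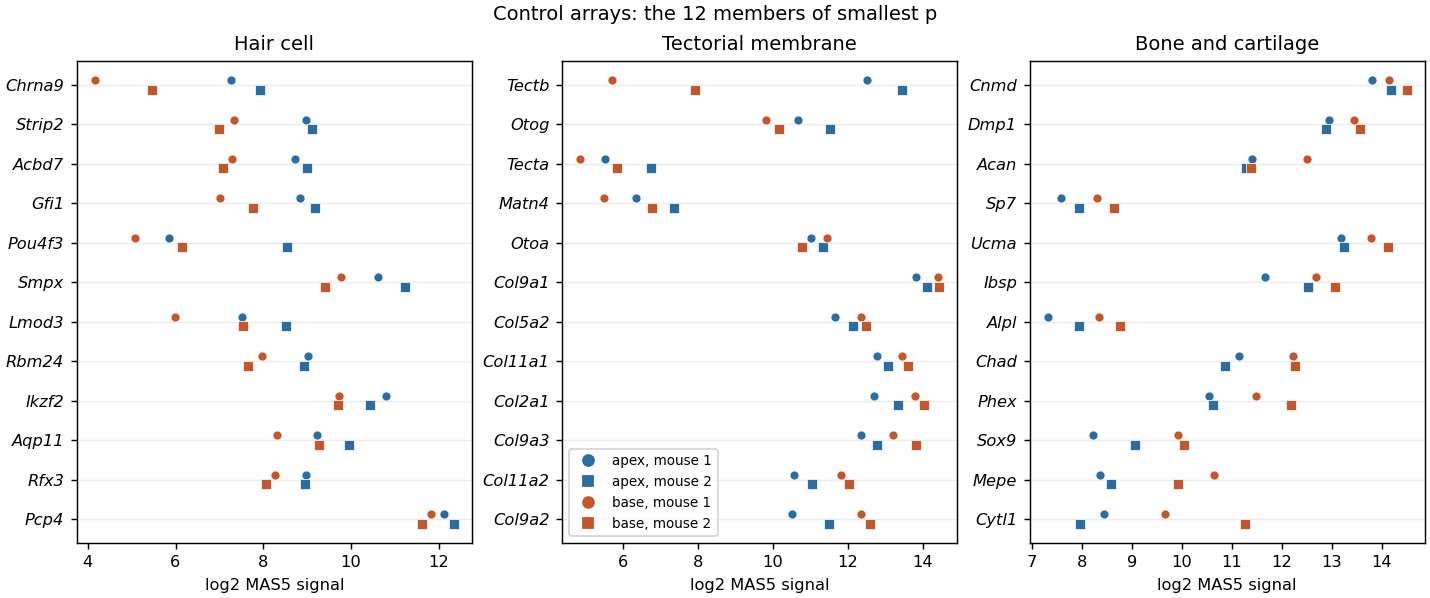
Log2 MAS5 signal (horizontal) on the 4 control arrays for the 12 members of smallest p of the hair cell soma and outer hair cell lists together, of the tectorial membrane list, and of the bone and cartilage lists together, with apical segments in blue and basal segments in orange, circles for mouse 1 and squares for mouse 2. In the hair cell panel all 12 genes are lower in the base of each mouse, while the collagens of the middle panel are higher there.

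Among calcium buffers and pumps, 9 of 11 genes were lower in the base, with a median of -0.38, which was 0.01 in mouse 1 and -0.68 in mouse 2. Beside Calb1, the plasma membrane calcium pump Atp2b1 was at 13.17 and 13.02 in the apex and 12.06 and 12.63 in the base (-0.75 ± 0.18, and -0.39 as the mean of its probe sets). The sodium-calcium exchanger Slc8a1 was at 7.52 and 7.29 against 6.91 and 5.52 (-1.19 ± 0.37), and Pcp4, which modulates calmodulin, at 12.13 and 12.34 against 11.81 and 11.62 (-0.52 ± 0.16). These 4 were the members with an unadjusted p under 0.05 (36.4%, against 5.44% of all genes tested that were lower at that level). Potassium channel genes gave a median of -0.28 (0.02 and -0.62), with 2 of 16 lower at that level (12.5%). These were the A-type channel subunits Kcnd3 (-0.56 ± 0.21) and Kcnd2 (-0.91 ± 0.36). The large-conductance channel Kcnma1, which sharpens electrical tuning in some vertebrates, was at 8.65 and 8.50 against 8.74 and 8.09 (-0.16 ± 0.24), a difference within the spread of the replicates. Its difference was positive with the mean of all its probe sets.

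A list of 21 tested genes that other work has reported as graded along the cochlea had a median of -0.62 (-0.31 and -0.90), with 18 lower. At an unadjusted p under 0.05, 8 were lower (38.1%, against 5.44% of all genes tested) and 1 higher (4.76%, against 5.51%). The higher one was A2m, a protease inhibitor of body fluids (0.53 ± 0.12). Follistatin (Fst) and its target activin A (Inhba), which oppose each other in the developing duct, were described for that reason. Inhba was at 7.21 and 7.43 in the apex and 6.29 and 7.01 in the base (-0.66 ± 0.35). Fst was at 9.52 and 9.71 against 7.99 and 10.00 (-0.62 ± 0.49), lower in mouse 1 and higher in mouse 2. Emilin2, a glycoprotein of the basilar membrane, was likewise at 13.87 and 13.97 against 12.30 and 14.19 (-0.68 ± 0.40), so its mice disagreed too. Tenascin C (Tnc), of the lower face of that membrane, was at 7.05 and 8.17 against 6.06 and 5.98 (-1.59 ± 0.58).

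The wider list of morphogen pathway genes was balanced, with 18 of 33 higher and a median of 0.06 (0.01 and 0.03). The 4 genes with an unadjusted p under 0.05 were all higher in the base (12.1%, against 5.51% of all genes tested). Wnt5a, a ligand of planar polarity, was at 10.91 and 11.72 in the apex and 11.47 and 12.51 in the base (0.68 ± 0.14, and 0.41 as the mean of its probe sets). Gli2, an effector of hedgehog signalling, was at 8.93 and 8.64 against 9.42 and 9.85 (0.85 ± 0.23). The follistatin-like protein Fstl1 (0.48 ± 0.13) and Cyp26b1, which degrades retinoic acid (0.73 ± 0.29), were the others. In the list of supporting cells, which surround hair cells, 17 of 23 genes were lower, 10 in both mice, with a median of -0.25 (-0.42 and -0.11). At an unadjusted p under 0.05, 6 were lower (26.1%, against 5.44% of all genes tested). Jag1, a Notch ligand of supporting cells, was at 10.43 and 10.21 against 9.36 and 9.33 (-0.98 ± 0.18, adjusted p = 0.236), and gave -0.52 as the mean of its probe sets. Sox2, which keeps the sensory domain, was at 10.81 and 10.99 against 9.97 and 9.32 (-1.25 ± 0.23, adjusted p = 0.236). The growth factor receptor Fgfr3, of pillar and Deiters cells (-0.78 ± 0.22, and -0.43 as the mean of its probe sets), and the nuclear receptor Rorb (-1.13 ± 0.36) were lower in the base of each mouse as well. Jag1 was the 1 of 18 Notch pathway genes with an unadjusted p under 0.05 (5.56%, near the 5.44% of all genes tested that were lower at that level). The pathway's median was -0.08.

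The tectorial membrane list split by class of protein. The 5 non-collagenous members were lower in the base on average, 4 of them in both mice, a grouping made after the values were seen. With Tectb, otogelin (Otog) was at 10.67 and 11.53 in the apex and 9.83 and 10.16 in the base (-1.11 ± 0.27), and alpha-tectorin (Tecta) at 5.52 and 6.76 against 4.87 and 5.84 (-0.78 ± 0.41), near the filter of 5.274. Its 7 collagens were all higher in the base of both mice, each at an unadjusted p under 0.05. Over all genes tested, 5.51% were higher at that level. The chain Col9a2 was at 10.50 and 11.49 against 12.34 and 12.59 (2.76-fold; 1.47 ± 0.21), Col11a2 at 10.56 and 11.05 against 11.81 and 12.03, and Col2a1 at 12.70 and 13.33 against 13.80 and 14.04 (0.90 ± 0.13), each with adjusted p = 0.195. These type II, IX and XI chains are also collagens of cartilage, and their part from each tissue was not tested. The median of the list, 0.49 (0.63 and 0.33), is set by these collagens. In the basilar membrane and matrix list 10 genes were higher and 10 lower (median 0.00), 8 higher and 4 lower in both mice. At an unadjusted p under 0.05, 5 were higher (25%, against 5.51% of all genes tested) and 2 lower (10%, against 5.44%). Among the higher genes, Bgn was at 10.66 and 10.85 in the apex and 11.75 and 12.04 in the base, and Col4a3 at 8.84 and 9.92 against 10.05 and 11.04. Emilin1, an elastic fibre glycoprotein also higher, was at 7.28 and 8.43 against 9.16 and 9.38 (1.42 ± 0.31).

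Most genes of bone and cartilage were higher in the basal segments. Bone and osteoclast genes had a median of 0.72 (0.72 and 0.68) with 8 of 11 higher in both mice, against 28.8% of all genes tested. At an unadjusted p under 0.05, 6 of these 8 were higher (54.5% of the list, against 5.51% of all genes tested) and 0 genes lower. The 3 lower on average, named after their values were seen, were the osteoclast phosphatase Acp5 (6.22 and 8.77 in the apex, 5.47 and 7.59 in the base; -0.96 ± 0.95) and the collagenase Mmp13 (5.36 and 6.89 against 3.96 and 5.66), both lower in each mouse, and the gelatinase Mmp9 (-0.47 ± 0.41). Phex, an endopeptidase of osteocytes, was at 10.54 and 10.63 in the apex and 11.49 and 12.19 in the base (1.25 ± 0.19, adjusted p = 0.195), with 2.13 as the mean of its probe sets. Mepe, a phosphoprotein of bone matrix, was at 8.35 and 8.57 against 10.65 and 9.93 (1.82 ± 0.36), and bone sialoprotein (Ibsp) and Dmp1, of mineralised matrix, gave 0.79 ± 0.20 and 0.59 ± 0.15. Cartilage genes had a median of 0.73 (1.09 and 0.46), with 7 of 9 higher in both mice. Of these 7, 6 were higher at that level (66.7% of the list), and 2 other genes were lower on average. All 9 were higher in mouse 1, so the mice disagreed on these 2, and the lowest value in mouse 2 was -3.16. Cytl1, a secreted protein of chondrocytes, was at 8.44 and 7.95 against 9.65 and 11.27 (4.82-fold; 2.27 ± 0.46), and Sox9, which directs cartilage formation, at 8.22 and 9.05 against 9.92 and 10.04 (1.34 ± 0.23). Chad was at 11.14 and 10.86 against 12.22 and 12.26, and Ucma, of the growth zone of cartilage, at 13.19 and 13.25 against 13.78 and 14.13 (0.73 ± 0.13). Of 18 mesenchymal and collagen genes 11 were higher (median 0.18, 0.21 and 0.07 in the mice), 5 at an unadjusted p under 0.05 (27.8% of the list). Among these 5 were Col3a1 (0.73 ± 0.11) and Mgp, an inhibitor of calcification (0.86 ± 0.18), with Col6a1 (1.01 ± 0.28) and Col1a2 (0.28 ± 0.10, and 0.52 as the mean of its probe sets).

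Vessel genes were mixed and interferon genes higher in the base. Of 13 endothelial and pericyte genes 7 were higher and 4 lower in both mice (median 0.35, 0.11 in mouse 1 and 0.52 in mouse 2), 5 higher and 0 lower at an unadjusted p under 0.05. Over all genes tested, 28.8% were higher and 29.4% lower in both mice, so the lower count was close to that share. At that unadjusted p 38.5% of the list was higher, against 5.51% of all genes tested. The endothelial coreceptor endoglin (Eng) was at 10.20 and 9.70 in the apex and 11.14 and 11.03 in the base (1.13 ± 0.21), and the angiopoietin receptor Tek at 8.70 and 8.71 against 9.43 and 9.62 (0.82 ± 0.18). Rgs5, a pericyte gene, gave 0.47 ± 0.12 (0.30 as the mean of its probe sets) and the tight junction gene Cldn5 0.70 ± 0.20. The 4 lower in both mice, named after their values were seen, were the endothelial sialomucin Emcn (-0.43 ± 0.19), von Willebrand factor (Vwf, -0.18 ± 0.23), the growth factor receptor Flt1 (-0.07 ± 0.21) and the channel subunit Abcc9 (-0.24 ± 0.15), and the mean of their probe sets turned Flt1 (0.11) and Abcc9 (0.038) to higher. All 11 tested interferon response genes were higher in the base on average, 9 of them in both mice, with a median of 0.89 (1.22 in mouse 1 and 0.48 in mouse 2). At an unadjusted p under 0.05, 8 were higher (72.7%, against 5.51% of all genes tested). Usp18, which restrains interferon signalling, was at 7.98 and 6.82 against 9.06 and 8.11 (1.18 ± 0.23, adjusted p = 0.252). Oasl2, of the antiviral oligoadenylate synthetase family, was at 8.01 and 7.86 against 9.48 and 8.79 (1.20 ± 0.25), the secreted Lgals3bp at 9.13 and 9.27 against 10.06 and 10.29 (0.97 ± 0.20), and the membrane protein Ifitm3 at 10.67 and 11.08 against 11.97 and 11.57 (0.89 ± 0.22). The lowest basal value of Usp18, 8.11, lay just above its highest apical value, 7.98.

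Promoters of 2 interferon genes higher in the base and of 2 genes lower in it are shown, to set the letters of the interferon list beside those of the apical genes, as the 250 bases before the gene's start, 5′ to 3′ on the gene's strand, from RefSeq on GRCm38.p6. The start on file is that of the annotation and was not measured here. Capitals mark the core that interferon regulatory factors bind, a pair of GAAA with any 2 bases between (a pair of TTTC where the core lies on the other strand), and CAGCTG, an E-box that reads the same on both strands. The base-high interferon genes Ifit3 (1.10 ± 0.32) and Bst2 (0.77 ± 0.29), named here for their promoters after their values were seen, and the apical genes Chrna9 and Tectb are given. They lie at chr19:34583279-34583528 (+), chr8:71537473-71537722 (-), chr5:65966874-65967123 (+) and chr19:55180476-55180725 (+).
Ifit3: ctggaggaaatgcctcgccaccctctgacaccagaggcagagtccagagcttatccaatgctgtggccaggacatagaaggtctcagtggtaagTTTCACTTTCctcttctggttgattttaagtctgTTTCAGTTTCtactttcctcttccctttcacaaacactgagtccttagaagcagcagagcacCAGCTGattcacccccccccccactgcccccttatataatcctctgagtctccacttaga
Bst2: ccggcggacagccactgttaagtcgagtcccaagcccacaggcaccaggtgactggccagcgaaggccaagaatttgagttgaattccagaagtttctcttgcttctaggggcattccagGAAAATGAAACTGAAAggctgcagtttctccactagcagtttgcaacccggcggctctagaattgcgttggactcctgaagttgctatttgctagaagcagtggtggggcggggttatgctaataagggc
Chrna9: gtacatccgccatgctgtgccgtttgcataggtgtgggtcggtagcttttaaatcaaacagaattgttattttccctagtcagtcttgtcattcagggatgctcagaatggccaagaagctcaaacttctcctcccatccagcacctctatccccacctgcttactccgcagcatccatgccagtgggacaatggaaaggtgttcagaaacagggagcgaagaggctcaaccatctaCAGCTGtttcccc
Tectb: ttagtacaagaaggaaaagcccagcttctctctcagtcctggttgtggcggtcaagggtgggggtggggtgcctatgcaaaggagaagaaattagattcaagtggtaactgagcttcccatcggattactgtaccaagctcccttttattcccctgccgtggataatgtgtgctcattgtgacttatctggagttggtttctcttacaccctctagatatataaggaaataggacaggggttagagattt
The Ifit3 window holds 2 interferon cores and 1 E-box, the Bst2 window 2 cores that overlap, the Chrna9 window 1 E-box and the Tectb window neither motif. Of the interferon list, 5 of 9 promoters on file hold the core (55.6%), against 2.98% of all 32851. The E-box was in 2 of 18 promoters of 12 hair cell soma genes (11.1%), close to the 13.0% of all promoters. A match is a description of these letters and not a measured site.

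The medians of several gene groups differed between segments in 1 control mouse only or in opposite ways. Neuronal genes had a median of 0.15 in mouse 1, with 18 of 25 higher in the base, and of -1.08 in mouse 2, with 20 of 25 lower. Tubb3, a neuronal tubulin, was at 10.04 and 9.89 in the apex and 10.81 and 8.92 in the base. The neurofilament Nefm was at 13.13 and 12.76 against 13.06 and 11.13, close in mouse 1 and lower in the base of mouse 2. The synaptic calcium sensor Syt1 was lower in both mice (8.44 and 9.14 against 7.72 and 8.27; -0.79 ± 0.19), and the neurotrophin receptor Ntrk2 was higher in both (10.02 and 10.46 against 10.25 and 11.80; 0.79 ± 0.29), though the mean of its probe sets was lower in the base (-0.10). Myelin genes had medians of 0.04 and -0.96, with 12 of 14 lower on average and 7 lower in both mice, against 29.4% of all genes tested. At an unadjusted p under 0.05, 3 were lower (21.4%, against 5.44% of all genes tested). Egr2, the myelin transcription factor, was at 12.43 and 12.19 against 12.24 and 10.70. Fa2h, which makes a myelin lipid, was at 11.68 and 11.67 against 11.38 and 10.41, and both genes were lower in each mouse. The abundant myelin gene Mbp differed little in either mouse (14.39 and 14.19 against 14.34 and 14.19; -0.03 ± 0.09).

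Strial genes went opposite ways in the mice. Marginal and basal cell genes had a median of -0.50 in mouse 1, 8 of 9 lower in the base, and of 1.29 in mouse 2, 8 of 9 higher. The potassium channel Kcnq1, which secretes potassium into the endolymph, was at 8.86 and 7.33 in the apex and 7.05 and 10.64 in the base. Pigment cell genes had medians of -0.55 and 0.96, with Dct at 11.87 and 6.19 against 5.96 and 13.88 and Tyr, the first enzyme of melanin synthesis, at 7.59 and 4.23 against 2.89 and 10.17. Kit, the receptor that pigment cells need, was higher in the base of both mice (9.86 and 10.04 against 10.75 and 10.51; 0.68 ± 0.18). Both cKO mice had the strial lists higher in the base, with medians of 1.24 and 1.32 for marginal and basal cell genes and 1.30 and 1.15 for pigment cell genes. Fibrocyte genes of the spiral ligament had medians of -0.05 and 0.57. Pou3f4, a transcription factor of otic mesenchyme, was at 10.66 and 10.85 against 11.43 and 12.06 (0.99 ± 0.16, adjusted p = 0.227), whereas Coch, the abundant fibrocyte protein cochlin, was at 14.61 and 14.26 against 14.40 and 14.41 (-0.03 ± 0.12).

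**Figure D4:**
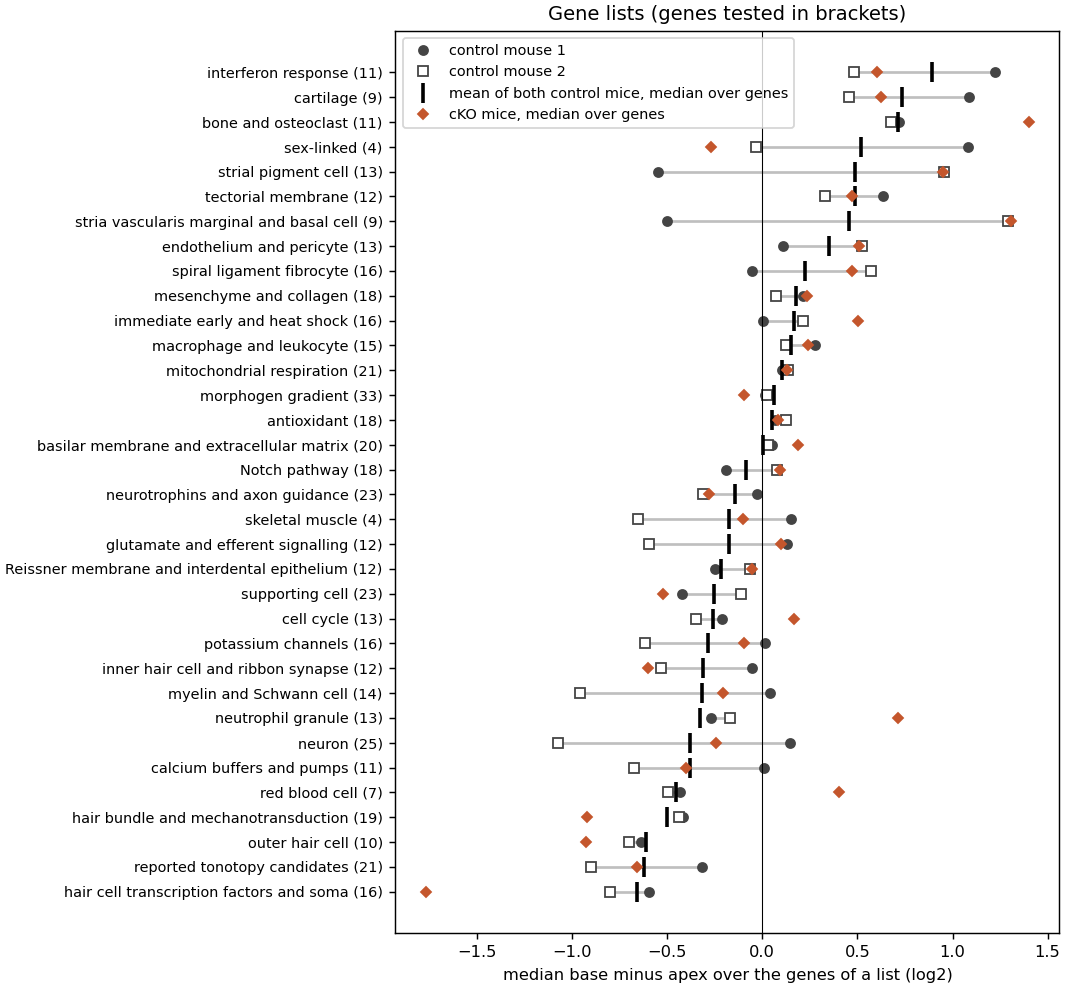
Median base minus apex (log2, horizontal) over the tested genes of each list (vertical, number of genes in brackets) in control mouse 1 (filled circle), control mouse 2 (open square), the mean of both (bar) and the cKO mice (diamond). Hair cell, bone and interferon lists lie on 1 side of 0 in both control mice, while the strial lists lie at -0.50 and -0.55 in mouse 1 and at 1.29 and 0.96 in mouse 2.

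Red blood cell genes were mixed, with 4 of 7 lower in the base of both mice and 3 higher on average, and 8 of 13 cell cycle genes were lower in both. Over all genes tested, 29.4% were lower in both mice. Hemgn, a nuclear protein of erythroid precursors, was at 7.74 and 7.94 in the apex and 5.06 and 6.33 in the base (4.42-fold; -2.15 ± 0.37, adjusted p = 0.230), and the erythroid factor Gata1, with low values raised to the filter, was at least 2.28-fold lower (6.33 and 6.60 against 5.14 and 4.97). The red cell anion exchanger Slc4a1 gave -1.06 ± 0.30, and -0.17 as the mean of its probe sets. The higher 3, named after their values were seen, were the haem synthesis enzymes Alas2 (0.32 ± 0.38) and Fech (0.23 ± 0.16) and the transferrin receptor Tfrc (0.07 ± 0.18), none of them higher in both mice, and the mean of the probe sets of Fech was lower in the base (-0.64). The cycling marker Mki67 was lower in the base of each mouse (-1.36 ± 0.23, adjusted p = 0.227), and Rrm2, which makes DNA precursors, at 7.77 and 8.67 against 7.43 and 7.58 (-0.71 ± 0.25). At an unadjusted p under 0.05, the red blood cell list had 3 of 7 genes lower (42.9%) and the cell cycle list 2 of 13 (15.4%), against 5.44% of all genes tested. Their medians were -0.45 and -0.26, and the red blood cell median was 0.15 with the 60th percentile filter. Of 18 antioxidant genes (median 0.05) 4 were higher at that level (22.2%, against 5.51% of all genes tested). Sod3, the extracellular superoxide dismutase (1.51 ± 0.34), led them, with the glutathione peroxidases Gpx2 (0.56 ± 0.15) and Gpx1 (0.52 ± 0.16) and the peroxiredoxin Prdx3 (0.40 ± 0.15). Respiratory chain genes gave a median of 0.11 and macrophage genes one of 0.15, with none at that level in either list.

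The cKO segments gave the same direction for most of the genes over 2-fold apart in both control mice. Those genes were chosen on the control pair differences, but the filter and the probe set of each gene were set over all 8 arrays. Of the 58 genes over 2-fold higher in the base of both control mice, 52 were higher in the base of both cKO mice (89.7%, against 29.5% of all genes tested), 31 of them over 2-fold (53.4%, against 1.54%). Of the 98 lower genes, 81 were lower in both cKO mice (82.7%, against 32.5%), 45 over 2-fold (45.9%, against 1.44%), and 4 were higher in both. The 30 genes of smallest p, 15 in each direction, also lay on the same side in both cKO mice, but their p uses the spread of the cKO pairs, so this is a description and no support. For Tectb the cKO differences were -6.90 and -4.77, for Calb1 -2.88 and -2.37, for Smpd3 1.34 and 1.83, and for Ptgis 1.66 and 1.91. Across all genes, the mean differences of the 2 genotypes correlated at r = 0.637 (Spearman's rho = 0.612), given as a description.

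**Figure D5:**
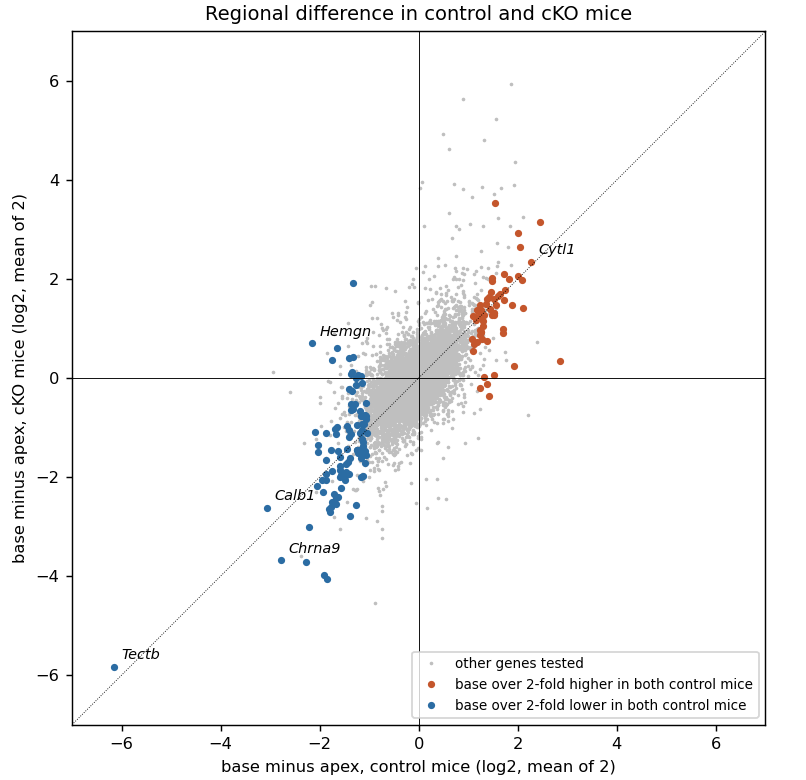
Base minus apex (log2) of each gene tested as the mean of the 2 control mice (horizontal) and of the 2 cKO mice (vertical), with the dotted line where both are equal and the genes over 2-fold one way in both control mice in orange (58, base higher) and blue (98, base lower). Most coloured genes lie in the same quadrant in both genotypes, and Hemgn lies above 0 in the cKO mice.

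The test of the difference between genotypes found 0 genes past the adjusted threshold in limma (smallest adjusted p = 1.00), and 248 at an unadjusted p under 0.05 (1.88%). Hair cell genes had wider medians in the cKO mice, -1.77 for transcription factors and soma, -0.92 for the hair bundle and -0.93 for outer hair cell genes, beside -0.66, -0.50 and -0.61 in controls. The difference had an unadjusted p under 0.05 for 5 of 16, 3 of 19 and 2 of 10 of these genes and passed adjustment for none. Bone and osteoclast genes had medians of 0.72 in controls and 1.40 in the cKO, tectorial genes 0.49 and 0.47, and interferon genes 0.89 and 0.60. Cell cycle and red blood cell genes stood at -0.26 and -0.45 in controls and at 0.17 and 0.40 in the cKO, and the neutrophil granule list at -0.33 and 0.71. The difference had an unadjusted p under 0.05 for 7 of 13 neutrophil granule, 3 of 7 red blood cell and 3 of 13 cell cycle genes. It did so for 2 of 11 bone, 1 of 12 tectorial and 1 of 11 interferon genes, and passed adjustment for 0 genes of these lists.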

How the data were processed

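Gene expression of apical and basal segments of the organ of Corti was measured on 8 Affymetrix arrays, 2 per group, from total RNA (75 to 125 ng) labelled in 2 cycles, per the labels' protocols. Each deposited value is the intensity of a probe set, a MAS5 signal scaled by the authors to a trimmed mean of 500 per array. The submitters' processing notes name MAS5 and affy 1.26, without their order. The array version is not given in the sources used here, and detection calls were not used here.

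Of 45101 probe sets, 34945 had 1 gene. Each gene was read from its probe set of highest mean log2 value (18193 genes), and 13221 genes at or above the 40th percentile (5.274, a signal of 38.71) were tested. Signals entered the fit as log2 values, without a pseudocount or normalization between arrays.

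The 8 arrays were fitted in limma 3.58.1 (R 4.3.3) with the presumed mouse (genotype and replicate number) as a block, and variances were moderated along the mean signal (prior degrees of freedom 4.00, residual 2). P-values are two-sided and were adjusted by Benjamini-Hochberg over all genes tested. Pairing rests on the submitters' statement of 1 mouse per replicate. Deviations from the group mean correlated between same-numbered segments at r = 0.339 in controls and 0.0683 in cKO mice. The procedure was run on simulated data with planted differences, to check the size of the estimates. That run is no check of the p-values or of the counts of genes.

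Genes were named by rule: the 15 of smallest p in each direction whose pairs went one way and whose groups did not overlap, up to 4 of smallest p per described list, and a fixed set of cochlear markers. The members and lists were chosen with earlier results of these data known, so a list's direction is not independent evidence. The fold of a gene with a group mean under the filter is given as a bound, with low signals raised to the filter. The pair and genotype differences of Gata1 and Mmp13 use the signals as measured. Alternatives covered the filter, a pseudocount of 16, quantile or 75th percentile normalization, the probe sets of a gene, the variance model, the block, the samples in the fit, the threshold and left-out replicates. Precision is limited by the number of arrays.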

Additional observations from a re-analysis of the deposited data

Results flagged for a closer look

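In 5 named genes both control mice differed one way between the segments and both cKO mice the other way. Hemgn, of erythroid precursors, was lower in the base of the control mice (-2.68 and -1.61, log2) and higher in the base of the cKO mice (1.06 and 0.34), and the difference between genotypes was 2.84 ± 0.52 (SE). Gata1, the erythroid factor, differed by 1.81 ± 0.48 between genotypes, from -1.18 and -1.64 in the controls to 0.37 and 0.44 in the cKO. Its basal control signals lay under the filter and are used here as measured. Rrm2, of DNA precursor synthesis, differed by 1.18 ± 0.35, from -0.35 and -1.08 to 0.46 and 0.48. Gpx2, a glutathione peroxidase, differed by -0.98 ± 0.21, from 0.61 and 0.51 to -0.59 and -0.25. Mmp13, a collagenase, differed by 3.24 ± 1.00, from -1.40 and -1.24 to 3.42 and 0.42, with signals as measured. In control mouse 1 its apical signal lay near the filter and its basal signal under it. The basal signal of control mouse 2 was near the filter. With low signals raised to the filter, little of the difference in control mouse 1 would remain. The adjusted p of the difference was 1.00 in limma for each of the 5, so none passed the threshold.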

How the results depend on the processing

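No alternative that kept every control array gave a control gene past the adjusted threshold, with 994 (no replicate block) to 1736 (no filter) genes at an unadjusted p under 0.05. Leaving out replicates, with and without the replicate block, moved the adjusted control count over 0 to 551 and the unadjusted one over 623 to 2790. For the cKO segments the count was 0, and 8 with no filter, 45 with the 60th percentile filter, 39 with log2 of the signal plus 16, 11 with no replicate block, 81 with a random replicate block, 14 with low values raised, 168 at an adjusted p of 0.10, and 0 to 611 with a replicate left out. The difference between genotypes gave 0 genes in all fits but one, 30 without control replicate 2. The causes were not tested. The 30 genes of smallest p kept their direction under every alternative that tested them, with adjusted p of 0.226 to 0.623 with no replicate block. Their groups do not overlap by choice, so a left-out replicate or a changed block could not reverse them. For those settings the kept direction is therefore no sign of robustness.

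Of 121 named genes, 21 changed sign under some alternative. With the mean of all probe sets Kcnma1 was 0.0020, Ntrk2 -0.10, Abcc9 0.038, Fech -0.64 and Flt1 0.11, and 23 of the 121 moved by over 1.5 times or changed sign. Leaving out 1 control array without the block did so for 66. With a replicate left out, with or without the block, differences ranged from -2.24 to 0.32 for Acp5, -0.65 to 1.29 for Alas2, -2.11 to 0.46 for Cabp1, -0.21 to 0.15 for Coch, -5.91 to 7.69 for Dct, -1.004 to 0.138 for Emcn, -1.62 to 0.27 for Emilin2, -0.079 to 0.53 for Fech, -1.62 to 0.38 for Fst, -0.49 to 0.16 for Kcnma1, -1.81 to 3.31 for Kcnq1, -0.12 to 0.074 for Mbp, -1.72 to 0.77 for Mmp9, -1.82 to 0.12 for Nefm, -0.29 to 0.43 for Tfrc, -1.05 to 0.84 for Tubb3, -4.70 to 5.94 for Tyr and -2.88 to 3.13 for Xist. The Notch list median was 0.14 with the mean of all probe sets, the morphogen one -0.0019 with no filter, and the muscle one 0.06 with quantile normalization. Quantile and 75th percentile normalization moved the share of higher genes at an unadjusted p under 0.05 from 50.3% to 54.5% and 55.2%. With 2 mice, and values near the filter, small differences cannot be told from no difference.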
